A study of Mus musculus with 6 samples.

Results

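Rab GTPases are small membrane-bound switches that mark the compartments of a cell and direct the traffic of vesicles between them. They were examined in cDC1, the type 1 subset of conventional dendritic cells, which is specialised in cross-presentation to CD8 T cells. Members were the probe sets with exactly 1 gene symbol whose symbol was Rab followed by a number and, where present, a letter. This gave 48 probe sets of 45 genes among the 12780 genes that could be compared, and for each gene the probe set with the highest mean was used. RefSeq lists 59 protein-coding mouse genes with such a symbol, and the other 14 were not analysed here. They are Rab3a, Rab3b, Rab3c, Rab4a, Rab7b, Rab15, Rab18, Rab27b, Rab33a, Rab34, Rab38, Rab39, Rab40b and Rab42.

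The cells were migratory cDC1, isolated by surface staining from lymph nodes that drain the skin, in wild-type C57BL/6 mice. The gate took XCR1+ Sirpa- CD40+ cells among those that were MHC II high and CD11c int and lacked B220 and CD326. Of the 6 samples, 1 array each, 3 were unstimulated and 3 had been stimulated with anti-CD40, so both groups consist of cells that carry CD40, the receptor engaged by the antibody. The labels call them biological replicates without naming separate animals, so the spread behind each p-value is that of these samples and may be technical in part. Age, pooling of animals, and the dose, time and place of stimulation, are not stated by the sources at hand.

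A Rab protein is inactive when bound to GDP and active when bound to GTP. Guanine nucleotide exchange factors (GEFs) switch it on, GTPase-activating proteins (GAPs) switch it off, and active Rabs recruit effectors such as motors and tethers. Prenyl groups anchor Rabs in membranes, and GDP dissociation inhibitors (GDIs) extract them again. In dendritic cells, Rab-directed traffic is known for bringing antigen and MHC molecules together and for the release of vesicles and granules.

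Array medians lay between intensities of 49.6 and 55.7, and Pearson's r across genes between arrays of a group was 0.915 to 0.958. Of 12 markers of cDC1 identity, 11 were measured and 0 were called (limma, adjusted p under 0.05), where the share over all genes was 0.0156%. Batf3, Irf8, Flt3 and Id2 were at log2 intensities of 8.55 or more on every array, and Cadm1, Zbtb46 and Clec9a between 6.14 and 7.99. Xcr1, on which the cells were sorted, lay between 4.21 and 4.91, and Itgae, Wdfy4 and Naaa between 4.50 and 5.33, below the all-gene median of every array. Of 12 genes of migratory dendritic cell maturation, 10 were measured and 0 were called. Their differences, stimulated minus unstimulated, ran from -0.05 to 1.54 with a median of 0.49, positive for 9 and negative for 1. The costimulatory ligand gene Cd86 had the largest, 1.54 (limma adjusted p = 0.208), with every stimulated array higher. Cd40, which encodes the receptor on which the cells were gated, differed by 1.01 (limma adjusted p = 0.99997, unadjusted p = 0.0155), likewise higher on every stimulated array. Of the markers of other cells, 6 of 10 T cell genes were measured, and all 6 had positive differences with a median of 0.52. Their summed intensity was 157 to 253 in unstimulated and 195 to 382 in stimulated samples, and their part in any result below was not tested. Epcam, which encodes the CD326 that the gate excluded, was at 4.71, 4.60 and 4.90 without and 5.36, 5.51 and 5.06 with stimulation, a difference of 0.57 (limma adjusted p = 0.99997, unadjusted p = 0.0176). Sirpa, excluded likewise, differed by 0.15, and both were higher on every stimulated array; their part was not tested either.

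Of the 45 Rab genes, 0 were called (limma, Benjamini-Hochberg adjusted p under 0.05 over all 12780 genes), where the share over all genes was 0.0156%. At an unadjusted p under 0.05 there were 3 of 45 (6.67%), against 3.49% of all genes. The differences, stimulated minus unstimulated on the log2 scale, were positive for 24 members and negative for 21, with a median of 0.07 against 0.005 for all genes. They were smaller than 0.3 in size for 36 members (80.0%), close to the 79.3% of all genes. Only Rab26 among the 45 differed by at least 2-fold, which 0.884% of all genes did. The 3 stimulated values lay above all 3 unstimulated values for Rab26, Rab24 and Rab29 (6.67%, against 3.68% of all genes) and below them for 0 members (3.46% of all genes). These are bulk measurements, in which fewer cells that express a gene and less RNA per cell cannot be told apart.

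**Figure D1:**
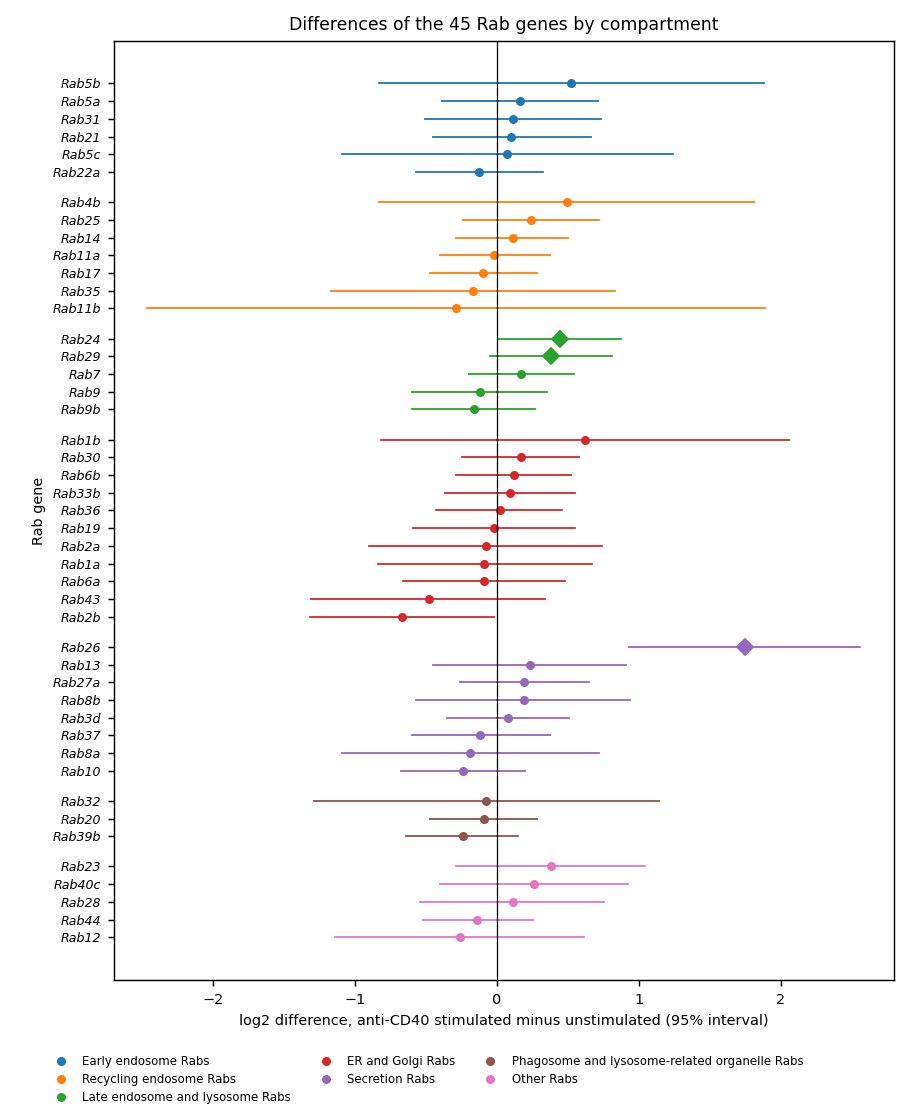
Difference of each of the 45 Rab genes between the 3 anti-CD40 stimulated and the 3 unstimulated arrays on the log2 scale (horizontal axis), with the 95% interval of the limma fit and genes grouped by compartment. Diamonds mark Rab26, Rab24 and Rab29, the genes whose groups did not overlap; Rab26 at 1.75 lies apart from the others, which range from -0.67 to 0.62.

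Rab26 belongs to the Rabs of regulated secretion and is known from secretory granules and synaptic vesicles, which it can direct to autophagosomes. Its log2 intensity was 7.87, 6.94 and 7.12 on unstimulated arrays 1, 2 and 3, against 9.58, 8.49 and 9.09 on stimulated arrays 1, 2 and 3. Every stimulated array was above every unstimulated one, and the lowest stimulated value exceeded the highest unstimulated value by more than the SD of either group. The means were 7.31 ± 0.49 and 9.05 ± 0.55 (SD, n = 3 each), a difference of 1.75 ± 0.35 (SE) or 3.36-fold (95% interval 1.91 to 5.91) for probe set 10448615. By size this difference ranked 11 and by p-value 36 among 12780 genes, but it did not pass the threshold (limma adjusted p = 0.476, unadjusted p = 0.00137). It changed sides with the fit. For example, it passed when arrays were weighted by how closely they followed the group fit (1.92, limma adjusted p = 0.0165, 0.36% of all genes called). Those weights were estimated from these same arrays and were highest for the arrays numbered 3 (6.14 and 2.2). The difference also passed with each array's interquartile range as covariate (1.58, limma adjusted p = 0.00953, 0.117% called). Leaving out 1 array at a time gave differences of 1.48 to 2.03 and adjusted p-values of 0.382 to 0.99999. For every other Rab gene the limma adjusted p was 0.99997.

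**Figure D2:**
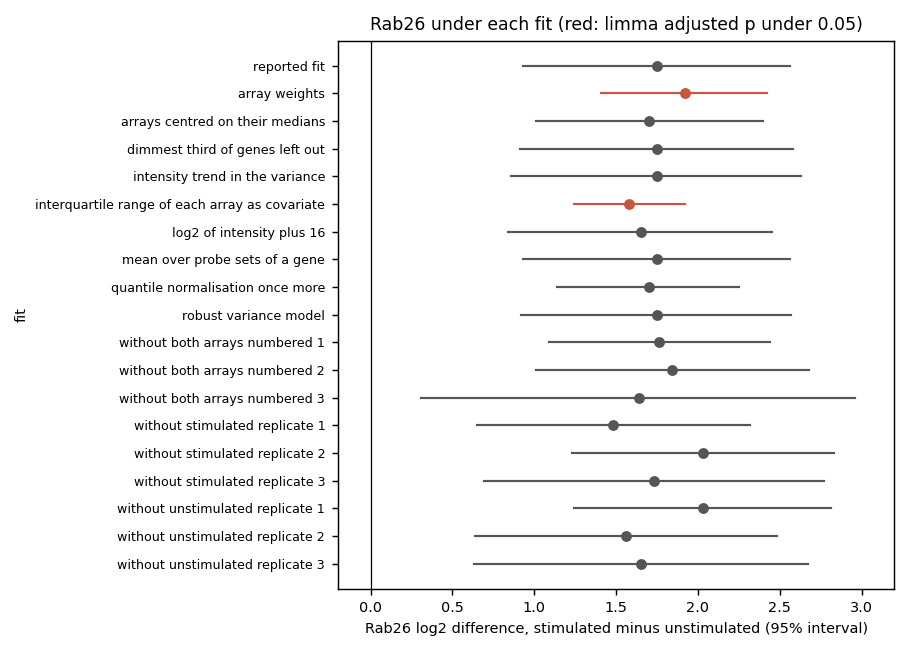
Log2 difference of Rab26 with its 95% interval (horizontal axis) in the reported fit and in alternative fits, 1 row per fit. Every interval shown lies above 0, and among the fits shown red marks those with array weights and with the interquartile range as covariate, in which the limma adjusted p was under 0.05.

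The other Rabs of secretion and of traffic to the plasma membrane differed little. Rab27a, which drives the release of exosomes and lysosome-related organelles and acts on phagosomes of dendritic cells, was at 6.29, 6.52 and 5.99 without and 6.54, 6.31 and 6.53 with stimulation. The groups overlapped, and its difference was 0.19 (95% interval -0.26 to 0.65). Rab3d, a Rab of secretory granules, differed by 0.08, and Rab37, a close relative of Rab26, by -0.12. Rab37 had 2 arrays under an intensity of 20, where values lie near the lower end of the table. Rab8b, which takes part in transport from the Golgi to the cell surface, was at 10.99, 10.29 and 10.28 and at 11.31, 10.47 and 10.34. Its groups overlapped, with a difference of 0.19 (95% interval -0.57 to 0.94). Rab8a, its closest relative, differed by -0.19 (-1.09 to 0.72). Rab10, which acts in exocytosis and recycling, was at 9.34, 9.59 and 9.17 and at 9.28, 9.17 and 8.93, a difference of -0.24 (-0.68 to 0.20). Rab13, known from epithelial junctions and migrating cells, differed by 0.23 (-0.45 to 0.91). Of the 8 secretion Rabs, with Rab26 included, 0 were called, and their median difference was 0.13.

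**Figure D3:**
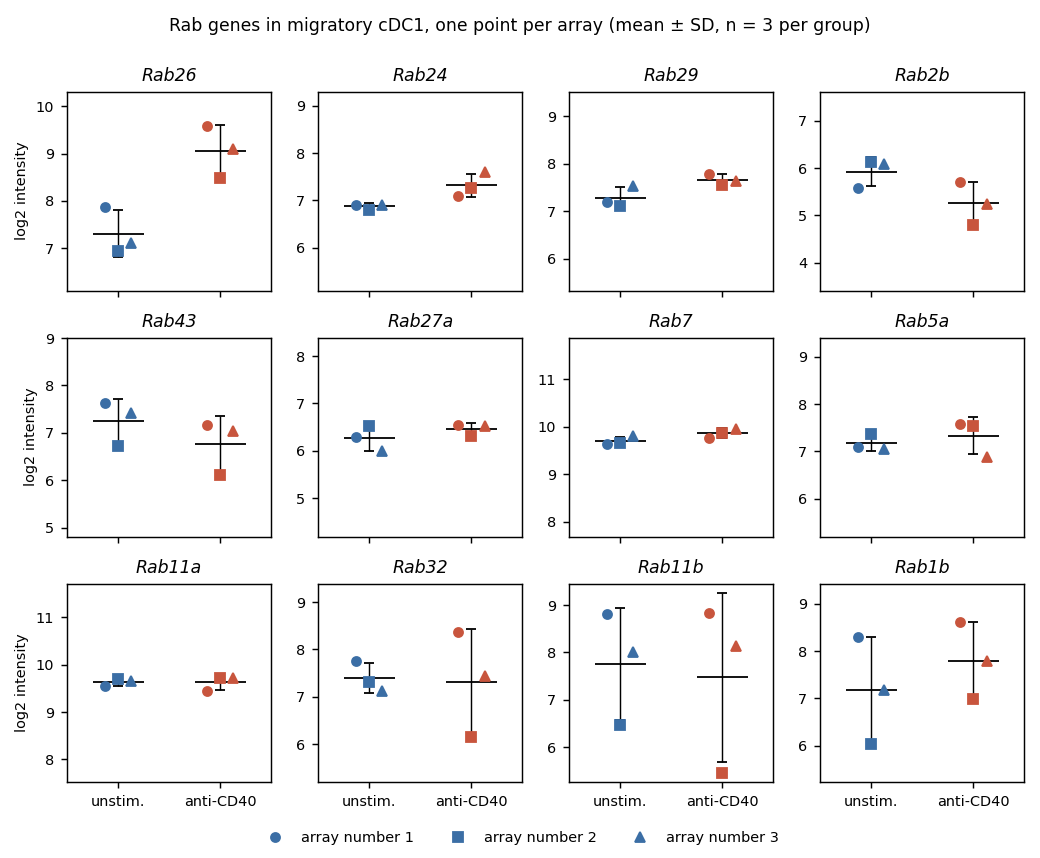
Log2 intensity of 12 Rab genes (vertical axes, each spanning the same width) on the 3 unstimulated (blue) and 3 anti-CD40 stimulated (red) arrays, with the mean and SD of each group. Symbols give the array number. Stimulated Rab26 values sit at 8.49 to 9.58, above the unstimulated 6.94 to 7.87, while Rab11b and Rab1b spread more between arrays of a group than between the groups.

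The other members whose groups did not overlap, Rab24 and Rab29, were listed here among the late endosome and lysosome Rabs. Over all genes, 3.68% had every stimulated value above every unstimulated one, and 2 genes of a short list are not read as a trait of the compartment. Rab24, which takes part in autophagy, was at 6.91, 6.80 and 6.91 without and 7.10, 7.26 and 7.59 with stimulation. All stimulated values were higher, by an average of 0.44 ± 0.18 (SE, limma adjusted p = 0.99997, unadjusted p = 0.0447), or 1.36-fold. Rab29, a Rab of the Golgi and stressed lysosomes that recruits the kinase LRRK2, was at 7.20, 7.11 and 7.54 and at 7.79, 7.55 and 7.64. Its groups were separated by a small gap, and the difference was 0.38 ± 0.18 (SE, limma adjusted p = 0.99997). When the arrays were quantile-normalised once more, only 1 Rab gene, Rab26, still had groups that did not overlap. Rab7, which controls fusion of late endosomes with lysosomes, was at 9.63, 9.65 and 9.80 and at 9.76, 9.88 and 9.96, and these groups overlapped. Its difference of 0.17 had a narrow 95% interval of -0.20 to 0.54. Rab9, which returns receptors from late endosomes to the Golgi, differed by -0.12 and its relative Rab9b by -0.16. Over these 5 genes 0 were called, with a median of 0.17.

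Early endosome Rabs were measured for 6 genes, of which 5 had positive differences, 0 were called, and the median was 0.11. Rab5a, which organises the fusion of early endosomes, was at 7.10, 7.37 and 7.05 and at 7.58, 7.53 and 6.89. Stimulated replicate 3 lay below all unstimulated arrays and the other stimulated arrays above them, so the groups overlapped (difference 0.16, 95% interval -0.39 to 0.71). Its paralogs Rab5b and Rab5c differed by 0.52 and 0.07, with wide intervals of -0.83 to 1.88 and -1.09 to 1.24. Rab21, which guides integrins through endosomes, differed by 0.10 and Rab31, which acts between the Golgi and endosomes, by 0.11. Rab22a, which takes part in the recycling of MHC class I molecules, was at 7.10, 7.17 and 7.53 and at 7.33, 7.03 and 7.07. Its groups overlapped, and its difference was -0.13 (95% interval -0.57 to 0.32).

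Promoter sequences of 4 members are shown. Rab24 and Rab29 are the members besides Rab26 with separated groups. Rab5a and Rab21 are examples of other members that, like Rab24, hold an E box within 250 bases of the gene start. The E box CACGTG is bound by many basic helix-loop-helix factors and forms the core of the CLEAR element of lysosomal genes, to which TFEB binds. The 250 bases before the gene start are printed from RefSeq (GRCm38.p6), 5′ to 3′ on the gene's strand, with each E box in capitals. For Rab24 the next 8 bases are included because the E box lies there. The regions are chr13:55321973-55322230 (minus strand) for Rab24, chr1:131867027-131867276 (plus) for Rab29, chr17:53478984-53479233 (plus) for Rab5a and chr10:115315592-115315841 (minus) for Rab21.
Rab24: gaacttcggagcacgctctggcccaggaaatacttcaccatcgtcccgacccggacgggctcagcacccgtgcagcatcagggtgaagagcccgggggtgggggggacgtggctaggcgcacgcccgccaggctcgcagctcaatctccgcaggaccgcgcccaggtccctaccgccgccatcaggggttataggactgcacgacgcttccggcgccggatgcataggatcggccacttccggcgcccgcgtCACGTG
Rab29: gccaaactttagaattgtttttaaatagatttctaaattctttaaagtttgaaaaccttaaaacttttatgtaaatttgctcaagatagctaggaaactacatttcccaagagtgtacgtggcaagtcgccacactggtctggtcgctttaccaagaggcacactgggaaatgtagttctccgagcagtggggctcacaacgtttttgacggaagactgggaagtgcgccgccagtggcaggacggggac
Rab5a: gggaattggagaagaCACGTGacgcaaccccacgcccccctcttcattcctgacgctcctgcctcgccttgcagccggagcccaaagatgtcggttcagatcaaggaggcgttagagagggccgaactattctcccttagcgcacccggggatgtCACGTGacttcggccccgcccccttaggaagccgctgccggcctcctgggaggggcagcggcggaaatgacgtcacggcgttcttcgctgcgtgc
Rab21: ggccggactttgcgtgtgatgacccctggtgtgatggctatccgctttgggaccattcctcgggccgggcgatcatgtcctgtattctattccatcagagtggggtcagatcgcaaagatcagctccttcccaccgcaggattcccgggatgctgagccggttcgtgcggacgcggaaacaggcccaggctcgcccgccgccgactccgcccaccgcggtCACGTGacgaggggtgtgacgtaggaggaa
The E box reads the same on both strands. Its first base lies 235 and 95 bases before the start of Rab5a and 30 bases before that of Rab21, and the printed stretch of Rab29 holds none. In windows of 300 bases, from 250 before to 50 after the start, 6 of the 39 Rab genes with an entry held an E box (15.4%), against 8.09% of all 27025 genes in the table; the other three were Rab20, Rab23 and Rab27a. A kappa B motif, searched on both strands, was found in Rab28 alone (2.56%, against 5.14% of all genes). The differences between the groups were 0.44 for Rab24, 0.16 for Rab5a, 0.10 for Rab21, 0.38 for Rab23, 0.19 for Rab27a and -0.09 for Rab20, and 0.11 for Rab28. A match describes these letters and not a bound site. Rab26, Rab2a, Rab30, Rab36, Rab37 and Rab44 had no entry.

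Recycling Rabs showed 0 calls among 7 genes and a median of -0.02. Rab11a, the main Rab of recycling endosomes, which supplies MHC class I molecules to phagosomes in dendritic cells, was at 9.55, 9.70 and 9.66 and at 9.44, 9.71 and 9.73. These 6 values spanned 0.30, and the difference was -0.02 (95% interval -0.40 to 0.37). Rab14, which acts between endosomes and the Golgi, was at 8.95, 8.74 and 8.99 and at 8.91, 9.17 and 8.93, a difference of 0.11 (-0.29 to 0.50) with overlapping groups. Rab35, a Rab of the plasma membrane and of fast recycling, was at 7.09, 6.40 and 6.51 and at 7.08, 5.51 and 6.89. Stimulated replicate 2 was the lowest of these arrays, and the difference of -0.17 had a wide interval of -1.17 to 0.83. Rab4b, of the fast recycling route, differed by 0.49 (-0.83 to 1.81), and Rab11b by -0.29 (-2.47 to 1.89). Rab17 and Rab25, known mainly from epithelia, differed by -0.10 and 0.24.

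Rabs of the endoplasmic reticulum (ER) and Golgi were the group with the most members, and 0 of its 11 genes were called. Rab2b, which acts in transport around the Golgi, had the most negative difference of all 45 Rab genes. It was at 5.57, 6.12 and 6.08 without and 5.71, 4.80 and 5.25 with stimulation. The groups overlapped through stimulated replicate 1, and the difference was -0.67 ± 0.28 (SE, limma adjusted p = 0.99997, unadjusted p = 0.0451). Its paralog Rab2a differed by -0.08. Rab43, which is known for its part in the cross-presentation of cell-associated antigen by cDC1, was at 7.62, 6.72 and 7.41 and at 7.17, 6.10 and 7.03. The array numbered 2 was the lowest in each group, the groups overlapped, and the difference was -0.48 ± 0.35 (SE, limma adjusted p = 0.99997). Rab6a, which drives transport back through the Golgi, was at 7.27, 6.65 and 7.32 and at 7.25, 6.99 and 6.73. It differed by -0.09 (95% interval -0.66 to 0.48), and its relative Rab6b by 0.12. Rab1a and Rab1b, which carry cargo from the ER to the Golgi, differed by -0.09 and 0.62, the latter with an interval of -0.82 to 2.06. Rab33b, a Golgi Rab that binds the autophagy protein ATG16L1, differed by 0.09, and the Golgi Rabs Rab19, Rab30 and Rab36 by -0.02, 0.17 and 0.02.

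Among Rabs of phagosomes and lysosome-related organelles, all 3 measured genes had small negative differences and 0 were called. Rab32, which acts in the formation of lysosome-related organelles and in the defence against bacteria, was at 7.75, 7.31 and 7.12 and at 8.37, 6.15 and 7.43. The stimulated arrays numbered 1 and 2 were the highest and the lowest of the 6, and the difference was -0.08 (95% interval -1.29 to 1.14). Rab20, which takes part in phagosome maturation, differed by -0.09. Rab39b was at 4.51, 4.82 and 4.67 and at 4.43, 4.29 and 4.55, a difference of -0.24 (-0.64 to 0.15) with 1 array under an intensity of 20. The remaining 5 genes also gave 0 calls. Rab23, an inhibitor of hedgehog signalling, was at 4.78, 4.88 and 4.33 and at 5.59, 4.88 and 4.66. Its groups overlapped, with a difference of 0.38 (-0.29 to 1.04). Rab28, a Rab of cilia, differed by 0.11 and Rab40c, which joins a ubiquitin ligase, by 0.26. Rab12, which acts on recycling receptors bound for lysosomes, differed by -0.26 and Rab44, a large Rab of granulated immune cells, by -0.14.

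The precision differed widely between members. For 32 of the 45 genes the 95% interval of the difference lay within 1 on the log2 scale in either direction. A 2-fold change in measured intensity was thus outside the interval for these 32 and not for the other 13. The 32 include dim genes, such as Rab19 (means 4.41 and 4.39) and Rab17 (4.46 and 4.36), below the all-gene median of every array. Background was not analysed, so for such genes a narrow interval does not exclude a 2-fold change in RNA. Some intervals, such as those of Rab26 (0.93 to 2.56) and Rab2b (-1.32 to -0.02), reached a 2-fold change also through the size of the difference. The widest intervals came from arrays of the same group that differed from each other. Rab11b was at 8.81, 6.47 and 8.0 in unstimulated and at 8.83, 5.45 and 8.14 in stimulated samples. In each group array 1 was the highest or near it and array 2 the lowest. The same order of arrays 1 and 2, with a gap of at least 1 in both groups, was seen for 6 Rab genes (13.3%, against 6.16% of all genes). They were Rab11b, Rab1b, Rab4b, Rab5b, Rab5c and Rab8a. Rab1b, for example, was at 8.30, 6.04 and 7.18 and at 8.61, 6.99 and 7.78. Rab2a and Rab19 went the other way, with array 1 lower than array 2 by at least 0.5 in both groups. For Rab19 the array 1 values, 4.02 and 4.06, were under an intensity of 20, near the lower end of the table. The gap between arrays 1 and 2 was also averaged over both groups with its sign, so that gaps of opposite sign cancel. This average was larger in size than the difference between the groups for 28 of 45 Rab genes (62.2%), against 75.7% of all genes.

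**Figure D4:**
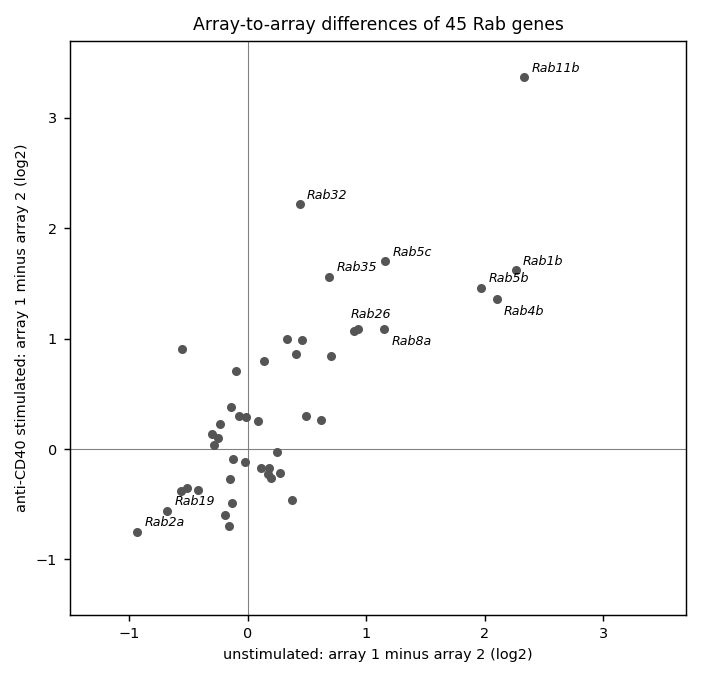
Log2 difference between the arrays numbered 1 and 2 among unstimulated samples (horizontal axis) and among anti-CD40 stimulated samples (vertical axis), 1 point per Rab gene. The sign was the same in both groups for 29 of 45 genes (64.4%, against 75.7% of all genes); Rab11b at 2.33 and 3.37 lies farthest out, and Rab2a at -0.93 and -0.75 at the other end.

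The median log2 intensity of the 45 Rab genes was 7.10, 6.52 and 7.12 on the unstimulated arrays and 7.17, 6.32 and 6.89 on the stimulated ones, in the order of their numbers. It was thus lowest on the array numbered 2 in each group. The median of all genes moved less, between 5.63 and 5.80. The interquartile range of all log2 intensities was 2.19, 1.74 and 1.92 and 2.31, 1.75 and 2.03 on the same arrays. It was also lowest on the arrays numbered 2, and its part in the spread of the Rab genes was not tested. Different probe sets of a gene did not always share the pattern. A second probe set of Rab11b (10450034) was at 5.70, 6.37 and 6.24 and at 5.98, 6.32 and 6.21, with array 1 the lowest in each group, and differed by 0.07. The second probe set of Rab5b (10373521) followed the first, at 9.02, 6.99 and 7.51 and at 9.06, 7.69 and 8.24. The second probe set of Rab2a differed by 0.07 where the one used differed by -0.08.

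The genes that act on or with Rabs were likewise without calls. Of 151 measured partner genes, 0 passed (limma adjusted p under 0.05), where the share over all genes was 0.0156%. An unadjusted p under 0.05 was found for 4 of them (2.65%, against 3.49% of all genes). The groups did not overlap for 4 with higher and 5 with lower stimulated values (5.96%, against 7.14% of all genes). Among 31 GEFs the median difference was 0.04. Rin3, a GEF of the Rab5 family, was at 6.69, 5.94 and 5.72 and at 7.21, 6.83 and 7.06, with every stimulated array higher. It differed by 0.91 ± 0.27 (SE, limma adjusted p = 0.99997). Dennd3, a GEF of Rab12, was also higher on every stimulated array and differed by 0.52 (limma adjusted p = 0.99997, unadjusted p = 0.0386).

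Among 31 GAPs the median was 0.03, and Tbc1d12 was lower on every stimulated array. It was at 5.06, 5.25 and 5.25 and at 4.71, 4.58 and 4.18, a difference of -0.70 ± 0.19 (SE, limma adjusted p = 0.99997). Tbc1d5, a GAP of Rab7, differed by -0.63 with overlapping groups. Among 44 effectors the median was 0.08. Fyco1, which links Rab7 on late endosomes and autophagosomes to kinesin, was at 6.90, 7.02 and 7.31 and at 6.64, 6.36 and 6.39. All stimulated values were lower, and the difference was -0.61 ± 0.18 (SE, limma adjusted p = 0.99997). Rilpl2, an effector of Rab36 and of phosphorylated Rabs, differed by 0.54.

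Of 10 genes of Rab prenylation, escort and GDI function, the differences were positive for 6 and negative for 4, and their median was 0.10. Gdi2, a GDI, was at 8.69, 8.78 and 8.91 and at 8.61, 8.51 and 7.80, a difference of -0.49 (95% interval -1.06 to 0.08) without overlap. Chm, which encodes the escort protein REP1, differed by -0.39. The 29 tethers, among them exocyst and COG subunits, had a median of 0.11, and Cog6 and Cog5 differed by 0.63 and -0.35. The 6 Rab-like GTPases had a median of 0.02, with Ift22 at 0.61 and Rabl2 at -0.36.

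**Figure D5:**
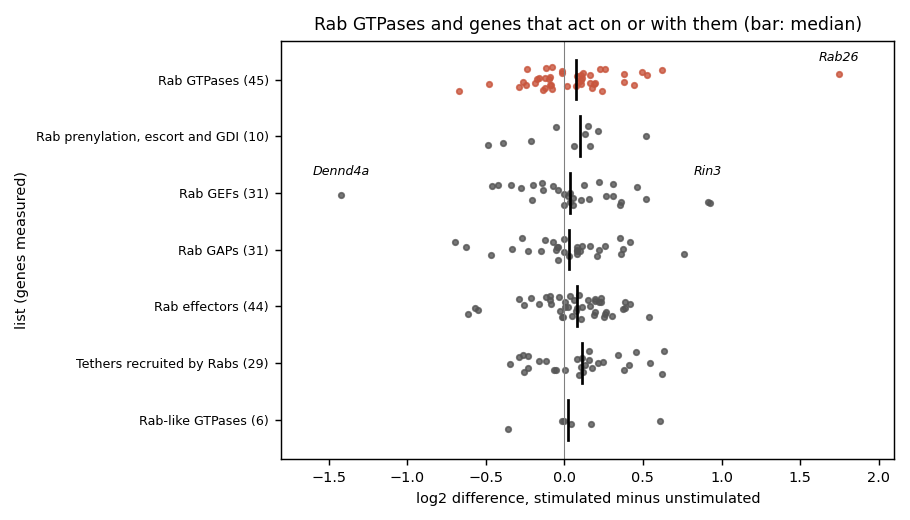
Log2 differences, stimulated minus unstimulated (horizontal axis), of the 45 Rab genes and of 6 lists of genes that act on or with Rabs, 1 point per gene with a bar at each list's median. Medians lie between 0.02 and 0.11, and Rab26 at 1.75 has the largest positive difference shown.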

How the data were processed

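Affymetrix Expression Console and RMA were the authors' tools, per the submitters' processing notes, which as given here name no version. They deposited 1 table of intensities of 17551 probe sets on 6 arrays, between 6.97 and 13701 and thus on a linear scale, so log2 was taken. Gene names came from the platform annotation. Of these, 13963 had 1 gene symbol, 970 several and 2618 none, and only those with 1 symbol were used, which gave 12780 genes. Differences between the groups were fitted in R 4.3.3 by limma 3.58.1 (lmFit, eBayes, no covariates, two-sided). Benjamini-Hochberg adjustment ran over all genes. Background was not analysed here, and the number of arrays limits the precision. The Rab genes, lists and tests were chosen with earlier results of these data known. Named genes are all Rab members, with array values for those whose groups did not overlap, the 8 with the largest statistic and 13 fixed members, of which 11 were measured. Array values of Rab11b and Rab1b, and further partner genes, were added after their values were seen. Partner lists name the 2 genes with the largest statistic each. The fit was tested on simulated data with noise that was independent between arrays. Of 100 genes given a log2 change of 1, 33 were called, and of 100 given a change of 2, 97. Of 12580 unchanged genes 10 were called. Array differences shared by both groups were not simulated. Alternatives varied the scaling, the filter, the variance model, the choice of probe set, covariates and the arrays left out. The E box was chosen after the values were seen. Figures were drawn with matplotlib 3.10.9.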

Additional observations from a re-analysis of the deposited data

How the results depend on the processing

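The count of called Rab genes was 0 in the reported fit and 1, always Rab26, with array weights, with the interquartile range as covariate and with the replicate block. It was 0 in the other fits and at an adjusted p under 0.10. The array weights ran from 0.475 to 6.14, with unstimulated replicate 3 weighted most. The replicate number as a block gave a limma adjusted p of 0.00812 for Rab26 (38 genes called in all, 0.297%). Deviations of samples with the same number correlated at 0.727, 0.594 and 0.0611, and those of numbers 1 and 2 across the groups at -0.602 and -0.686. The labels state no pairing, and with the low value for number 3 the numbers are not taken to pair the samples. These correlations do not settle whether the samples were paired. The block changed no other Rab call. All genes called numbered 2 in the reported fit, 46 with array weights, 15 with the interquartile range as covariate, 38 with the replicate block, 6 with quantile normalisation once more, 4 with arrays centred on their medians and 1 with log2 of intensity plus 16. Without any 1 array the count was 0 (range 0 to 0), as without both arrays of 1 number, which was chosen after seeing the data. Rab genes with groups that did not overlap numbered 3, but 1 after quantile normalisation. They numbered 5 to 8 without 1 array. Without both arrays numbered 1, 2 and 3 they numbered 12, 13 and 10. Fewer samples make separation easier in these fits. The share over all genes is not given for these alternatives, so the counts are not read as a result about Rab genes. The median Rab difference ran from 0.004 to 0.121. Partner genes had 0 calls in every fit run. Of 18 Rab genes with array values under the naming rule, 10 kept their sign throughout and 8 changed it in 23 cases; 0 of those were called.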

Other observations

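Genes beside Rab26 in the genome had smaller measured differences than its 1.75, though the wide interval of Traf7 includes that value. A change shared with the neighbours was not tested. Traf7, on one side, which encodes a ubiquitin ligase, was at 7.66, 5.69 and 6.30 without and 8.24, 5.66 and 7.47 with stimulation, a difference of 0.57 (95% interval -1.14 to 2.28). Pkd1, the next measured gene on the other side, differed by 0.12 (-0.89 to 1.14), and Caskin1, beyond Traf7, by -0.11 (-0.47 to 0.26). Atg16l1, which encodes the autophagy protein that Rab26 and Rab33b bind, differed by 0.17 (-0.24 to 0.58). These genes were chosen after the values were seen.

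Dennd4a, which encodes a GEF of Rab10, had the largest difference in size of the 151 partner genes. It was at 10.99, 9.64 and 9.72 in unstimulated and at 10.13, 8.44 and 7.51 in stimulated samples. The groups overlapped through stimulated replicate 1, and the difference of -1.42 (95% interval -3.00 to 0.16) did not pass (limma adjusted p = 0.99997). It was named after its value was seen.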
